A study of Mus musculus with 8 samples.

Results

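The cadherins and protocadherins of mouse neuroblastoma were followed in whole tumours treated with panobinostat or vehicle. Members were all rows of the deposited expression table whose GENCODE M21 symbol was Cdh followed by a number, or began with Pcdh, and 49 of the 17488 genes in the table met this rule. They were read as 23 clustered protocadherins (symbols beginning Pcdha, Pcdhb or Pcdhg) and 26 other members. The annotation holds 93 identifiers under such symbols, so 44 were not analysed here: 34 alpha and gamma protocadherins, Pcdhb1, Cdh7, Cdh8, Cdh9, Cdh10, Cdh12, Cdh16, Cdh18, Cdh26 and Pcdh11x.

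All animals were homozygous for TH-MYCN, a transgene in which the tyrosine hydroxylase promoter drives human MYCN in the sympathetic lineage, and vehicle animals carried it too. Treatment began at about 6 weeks of age with abdominal tumours of 200 to 300 mm3. The panobinostat group (4 animals) was given 5 mg/kg of this histone deacetylase inhibitor in 2 doses 24 h apart, the vehicle group (4 animals) received vehicle on the same plan, and tumours were collected 4 h after the second dose. Each library came from the tumour of 1 animal with its stroma. In such material fewer cells of a type and less RNA per cell cannot be told apart.

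Cadherins are calcium-dependent adhesion proteins whose extracellular domains bind partners on neighbouring cells. Classical cadherins hold adherens junctions together through catenins and actin, and the switch between E-cadherin and N-cadherin is a textbook feature of epithelial and neural crest cells. Clustered protocadherins are built from tandem arrays of variable exons or genes, of which a neuron expresses a small combination that acts as a cell-surface identity code. Promoter choice in these arrays depends on CTCF, cohesin and DNA methylation, while the non-clustered delta protocadherins are read from single genes.

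Depth was 22055658 to 23830026 reads over the listed genes in vehicle libraries and 18664066 to 22235545 in panobinostat libraries, and 1 CPM (reads scaled to the library size) stood for 19.3 to 22.6 reads. Of 16157 genes tested with limma at an adjusted p of 0.05, 63.7% were called, 31.2% higher and 32.4% lower with panobinostat, so a call by itself was common. The median log2 change over all tested genes was -0.02. It was 0.10 after scaling to read totals, -0.14 after median centring and -0.12 after quantile normalization, and the changes given here are relative to that scale. The neuroblastoma and sympathetic neuron markers summed to 2630 to 4329 CPM with vehicle and 1079 to 1163 CPM with panobinostat, with 8 of 10 markers called lower. Th and Dbh, which mark catecholamine synthesis, were not called, while Ddc of the same synthesis fell by 1.46 (limma adjusted p = 0.000241). Fibroblast and mural markers summed to 1581 to 4950 and 8496 to 15480 CPM (10 of 10 called higher), and macrophage markers to 648 to 1240 and 3118 to 5564 CPM (9 of 10 called higher). Panobinostat library 4 held 9740 CPM of liver markers and 4851 CPM of pancreas markers, and panobinostat library 3 held 714 CPM of liver and 789 CPM of kidney markers. Panobinostat library 2 held 775 CPM of pancreas markers, and panobinostat library 1 held 888 CPM of adrenal cortex markers (54.1 to 95.8 CPM with vehicle). Skeletal muscle markers reached 7727 CPM in panobinostat library 1 and 2639 CPM in vehicle library 2. Adipocyte markers summed to 58.2 to 866 CPM with vehicle and 2112 to 3153 CPM with panobinostat (10 of 10 called higher). Panobinostat libraries 1 and 2 remained in the fits without libraries 3 and 4, so those fits are not free of other tissue. Vehicle libraries held at most 7.81 CPM of liver, 14.6 CPM of pancreas and 3.33 CPM of kidney markers.

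Clustered protocadherins and the other members differed in their counts of calls. All 49 members passed the expression filter (at least 1 CPM in at least 4 libraries), and each reached 1 CPM in at least 1 library of both groups. Some leaned on the group where they were high. Pcdhb12 reached 1 CPM in 4 vehicle and 1 panobinostat libraries, and Cdh19 in 2 vehicle and 4 panobinostat libraries. Their calls, counted below, carry that limit. Of the 23 clustered rows, 0 were higher and 17 lower with panobinostat, beside 31.2% higher and 32.4% lower among all tested genes. In 13 of the 23 every panobinostat library lay below every vehicle library, a pattern that 31.2% of all tested genes showed. Over all 49 members the groups were separate for 23, 6 higher and 17 lower, beside 59.7% of all tested genes (28.5% higher). Against a 1.5-fold change, 8 members passed, 2 higher and 6 lower, beside 30.9% of all tested genes. The median log2 change of the clustered rows was -1.04, and 21 of the 23 changes were below 0. Of the 26 other members, 9 were higher, 4 lower and 13 had no call, with a median log2 change of 0.52. The difference between these 2 lists was not tested. Without panobinostat libraries 3 and 4, which held most of the reads from liver and kidney genes, 8 clustered rows were lower and 0 higher (median -0.88, 21 of 23 below 0), beside 25% of all tested genes lower. In the same fit 4 other members were higher and 3 lower (median 0.56), beside 23.4% of all tested genes higher.

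The alpha cluster was seen through 1 row, which carries the symbol Pcdha11 in M21 (ENSMUSG00000007440, chromosome 18). Alpha protocadherins join a variable extracellular domain to a constant cytoplasmic end. This row and the gamma row have identifiers of an older kind: the highest identifier number in the table is 98239, and the alpha and gamma identifiers without a row begin at 102206. The gene model behind each row is not known from the sources used here, so isoforms could not be told apart and no level per length was computed. The alpha row read 47.1, 53.1, 94.1 and 66.7 CPM in vehicle libraries 1 to 4 and 15.9, 22.4, 19.1 and 21.3 CPM in panobinostat libraries 1 to 4. Every panobinostat library lay below every vehicle library, and vehicle library 3 was the highest. The row fell by 1.69 on the log2 scale (SE 0.21, limma adjusted p = 0.000135), with a mean 3.32 times lower after panobinostat. It kept its call in all 21 alternative settings.

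The gamma row (Pcdhgc4 in M21, ENSMUSG00000023036, chromosome 18) had the highest CPM of the clustered rows. Gamma protocadherins are known for supporting interneuron survival and dendrite self-avoidance, and Pcdhgc4 names the C-type isoform tied to survival. It read 280.2, 339.8, 370.2 and 406.1 CPM with vehicle and 231.3, 301.4, 244.9 and 231.8 CPM with panobinostat. The groups overlapped, since panobinostat library 2 lay above vehicle library 1. The row fell by 0.46 on the log2 scale (SE 0.14, limma adjusted p = 0.0144). The call was lost after quantile normalization (-0.12, adjusted p = 0.391) and with panobinostat libraries 3 and 4 both left out (-0.39, adjusted p = 0.127).

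**Figure D1:**
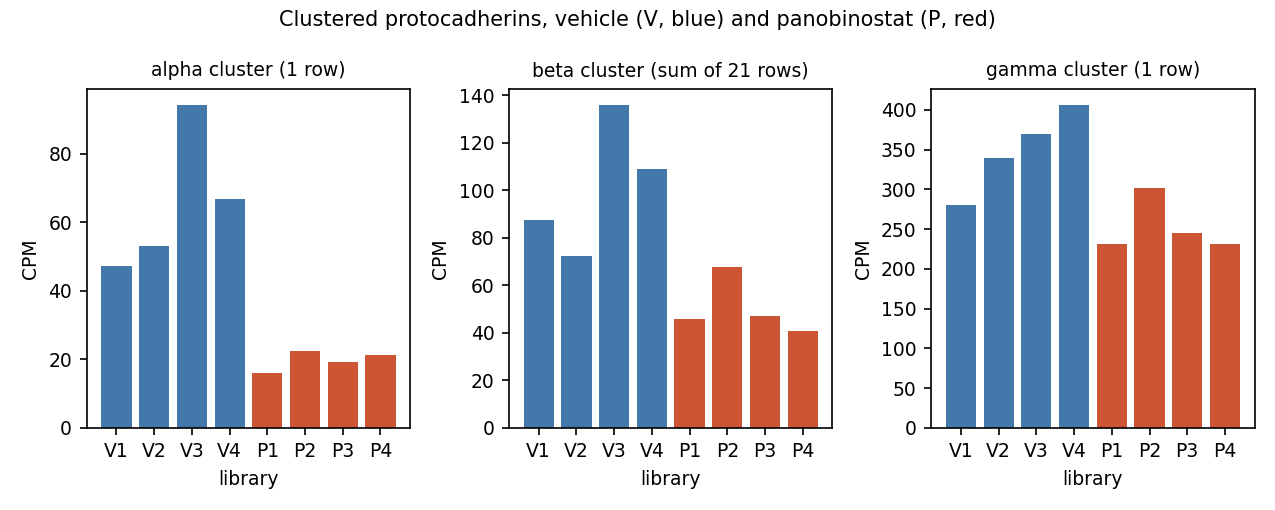
CPM of the alpha row, the sum of 21 beta rows and the gamma row (vertical axes, each from 0) in the 4 vehicle (V) and 4 panobinostat (P) libraries, 1 bar per library. The alpha row and the beta sum do not overlap between groups, and in the gamma row P2 (301.4 CPM) stands above V1 (280.2 CPM).

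The beta cluster had a row for each of 21 genes, Pcdhb2 to Pcdhb22. Each beta gene is a single exon with its own promoter and lacks the shared constant end of the alpha and gamma proteins. The summed beta rows held 87.4, 72.3, 135.8 and 108.9 CPM in the vehicle libraries and 45.9, 67.8, 47.1 and 40.9 CPM in the panobinostat libraries. The groups did not overlap, although panobinostat library 2 came close to vehicle library 2. The mean was 101.1 ± 27.6 CPM (SD, n = 4) with vehicle and 50.5 ± 11.9 CPM (SD, n = 4) with panobinostat, a ratio of 2.00. Of the 21 genes, 15 were called lower and 0 higher, and 12 of these did not overlap between groups, beside 32.4% and 31.2% of all tested genes. The median log2 change was -1.04. The neuroblastoma marker sum was highest in vehicle libraries 3 and 4, which were also the highest in the beta sum. Its part in the result was not tested.

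Pcdhb2 read 4.86, 6.57, 5.68 and 10.02 CPM with vehicle and 2.11, 3.01, 1.72 and 1.58 CPM with panobinostat. All panobinostat libraries lay below all vehicle libraries, and Pcdhb2 fell by 1.67 on the log2 scale (SE 0.30, limma adjusted p = 0.000982). Pcdhb5 read 6.58, 6.67, 10.6 and 7.75 CPM with vehicle and 2.38, 4.25, 2.96 and 2.34 CPM with panobinostat. The groups stood apart, and Pcdhb5 fell by 1.41 (SE 0.26, limma adjusted p = 0.00117). Pcdhb10 read 6.58, 3.33, 5.45 and 8.65 CPM against 1.75, 2.75, 2.06 and 1.63 CPM. Vehicle library 2 was the lowest of its group and still above all panobinostat libraries, and Pcdhb10 fell by 1.49 (SE 0.32, limma adjusted p = 0.00281).

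Pcdhb16 had the highest CPM of the beta genes, with 10.4, 8.19, 14.6 and 10.2 CPM with vehicle and 4.79, 6.06, 5.12 and 4.69 CPM with panobinostat. The groups were separate, and Pcdhb16 fell by 1.04 (SE 0.21, limma adjusted p = 0.00191). Pcdhb17, the next in CPM, read 9.36, 5.64, 11.3 and 7.46 CPM against 4.17, 4.56, 3.35 and 3.16 CPM. Again no panobinostat library reached the vehicle range, and Pcdhb17 fell by 1.11 (SE 0.25, limma adjusted p = 0.00378). Per kilobase of exon, a scale on which genes can be compared, the vehicle medians of Pcdhb2, Pcdhb10, Pcdhb5 and Pcdhb16 were 2.18, 2.11, 2.04 and 1.97 CPM per kb. Their ranges over the 4 vehicle libraries overlapped, so no order among these 4 genes stood out from the spread.

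The other called beta genes were lower by similar amounts. Pcdhb21 fell by 1.38, Pcdhb6 by 1.35, Pcdhb15 by 1.18, Pcdhb19 by 1.13 and Pcdhb20 by 0.98, all without overlap between groups. The calls of Pcdhb17, Pcdhb19 and Pcdhb20 were lost without panobinostat libraries 3 and 4 together (adjusted p = 0.0539, 0.0521 and 0.12). Pcdhb12, Pcdhb13, Pcdhb3, Pcdhb4 and Pcdhb22 fell by 1.33, 1.18, 0.93, 0.87 and 0.71 with limma adjusted p from 0.0243 to 0.0408, and each lost its call when single libraries were left out. For Pcdhb12 these were vehicle libraries 3 and 4 and panobinostat library 3 (adjusted p 0.0505 to 0.0672 without them). For Pcdhb13 and Pcdhb3 they were vehicle libraries 3 and 4 and panobinostat libraries 1, 3 and 4 (0.0605 to 0.0812 and 0.0664 to 0.0804). For Pcdhb22 they were vehicle library 3 and panobinostat libraries 1, 2 and 4 (0.0538 to 0.0678), and for Pcdhb4 every library except vehicle library 2 (0.0591 to 0.0899). All 5 lost their calls with panobinostat libraries 3 and 4 both left out (0.0801 to 0.201). Apart from Pcdhb12, they also lost them with scaling to read totals (0.0506 to 0.0684) and with library weights (0.0523 to 0.155), where Pcdhb22 changed by -0.40 and Pcdhb4 by -0.51.

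A call was absent for 6 beta genes: Pcdhb18 (log2 change -0.75), Pcdhb9 (-0.64), Pcdhb14 (-0.48), Pcdhb7 (-0.32), Pcdhb8 (0.02) and Pcdhb11 (0.66). Pcdhb11 read 1.72, 0.980, 4.04 and 1.28 CPM with vehicle and 2.46, 4.15, 2.34 and 2.29 CPM with panobinostat. Vehicle library 3 was as high as the highest panobinostat library, while the other vehicle libraries lay below all of them. Its 95% interval ran from -0.32 to 1.63 (limma adjusted p = 0.211). Without vehicle library 3 the log2 change was 1.06 (adjusted p = 0.0194). Pcdhb8 read 1.06, 0.833, 2.93 and 2.17 CPM with vehicle and 1.39, 2.64, 1.53 and 1.07 CPM with panobinostat, with full overlap and an interval from -0.996 to 1.04.

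**Figure D2:**
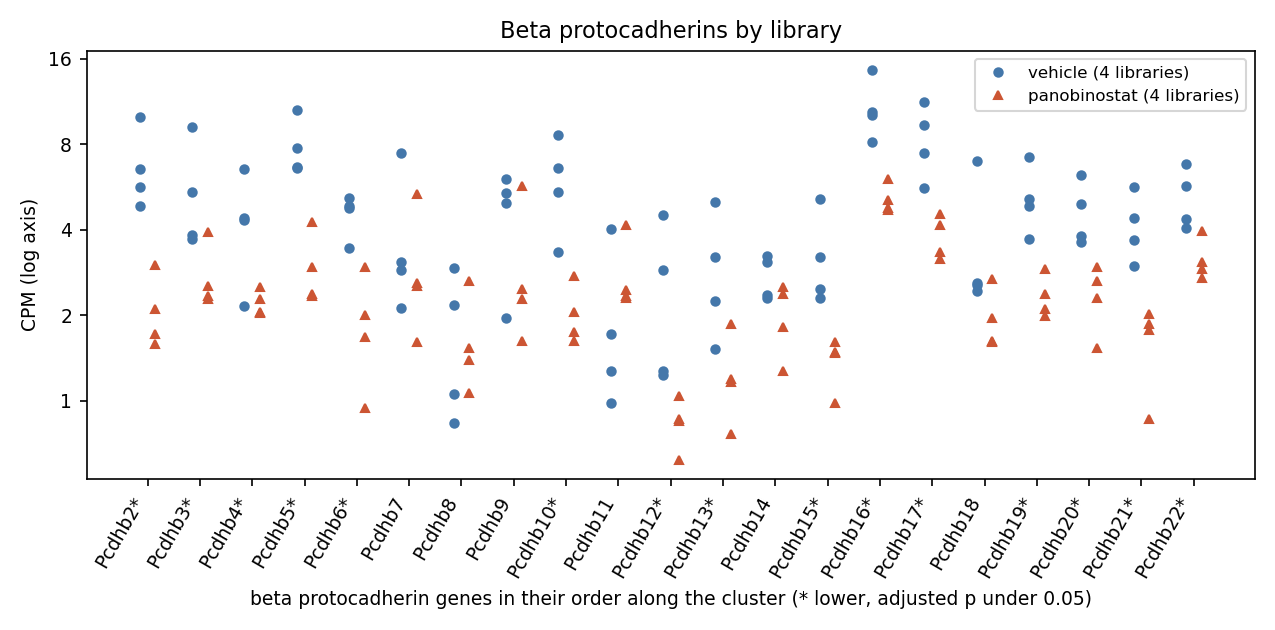
CPM (log axis) of 21 beta protocadherin genes in their order along the cluster, 1 point per library, vehicle as circles and panobinostat as triangles. All panobinostat points lie below all vehicle points for 12 of the 21 genes, and the groups overlap for the other 9, among them Pcdhb8 and Pcdhb11.

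Libraries moved across the beta genes together. Vehicle library 3 was the highest of its group for 16 of the 21 genes and vehicle library 4 for 5, and vehicle libraries 2 and 1 were the lowest for 13 and 8. Among panobinostat libraries, library 2 was the highest for 17 genes and library 4 the lowest for 14. Dividing each gene by the beta sum of its library removed this shared part. On that scale the groups overlapped for 18 of 21 genes. Pcdhb11 made up 1.17% to 2.97% of the beta sum with vehicle and 4.97% to 6.11% with panobinostat, and Pcdhb8 1.15% to 2.16% and 2.62% to 3.90%, both higher without overlap. Pcdhb5 went from 7.12% to 9.22% with vehicle to 5.17% to 6.29% with panobinostat, the 1 gene lower without overlap. Pcdhb16 stayed a large share in both groups, 9.33% to 11.9% and 8.94% to 11.5%. Shares have a fixed total, so a gene that keeps its level gains share when the other genes fall. On the CPM scale Pcdhb8 changed by 0.02 and Pcdhb11 by 0.66 (log2), both with no call. These shares were not tested, and they rest on 13 to 329 reads per gene and library.

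**Figure D3:**
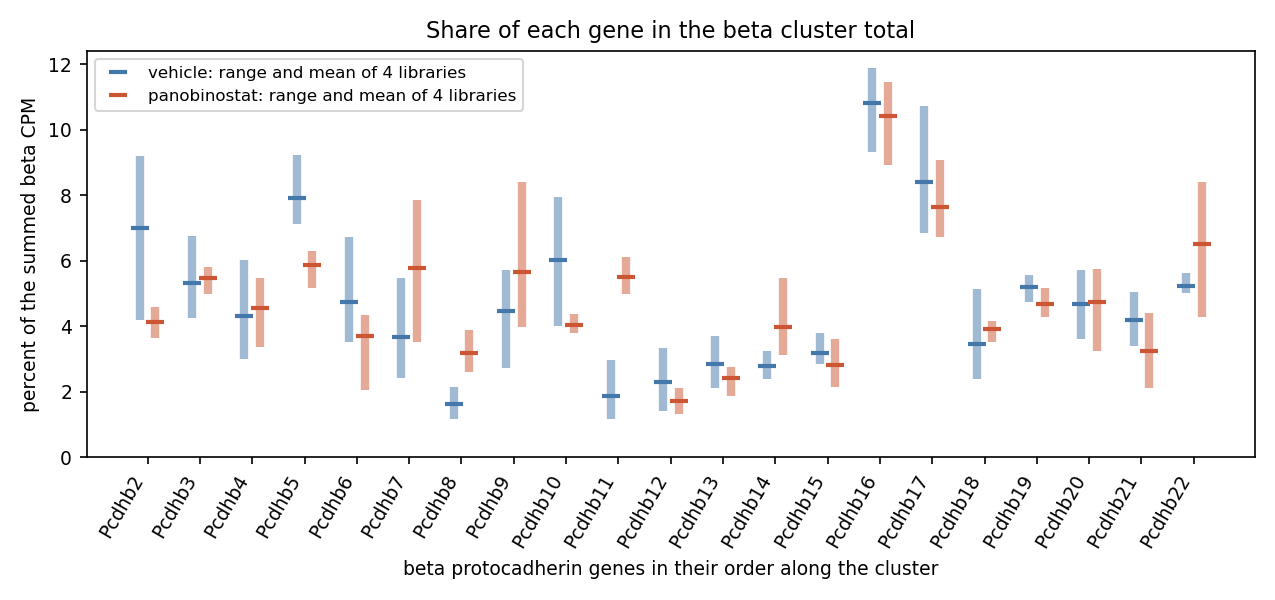
Percent of the summed beta CPM (vertical axis from 0) for each beta gene in cluster order, with bars for the range and dashes for the mean of the 4 libraries of each group. Ranges of vehicle and panobinostat are apart for Pcdhb5, Pcdhb8 and Pcdhb11 and overlap for the other 18 genes.

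Position and sequence were set beside the changes as description. Across the 21 beta genes, which share libraries, Spearman's rho of the log2 change was -0.48 with the vehicle level. The vehicle values enter both sides with opposite sign, so noise alone can make this rho negative and no relation is read from it. With order along the cluster rho was 0.08, and with the share of 50-base windows found in other transcripts it was 0.14. That share was 1.8% to 12% (median 5.22%), and how the authors assigned reads with several matches is not given in the sources used here. The values of close beta paralogs are uncertain to that extent. In Pcdhb12, 36.5% of exon bases are covered by no other annotated gene, which makes its row the least certain. Of 35 tested genes within 1 Mb of the clusters, 9 were higher and 7 lower, with a median log2 change of 0.05, beside 31.2% and 32.4% of all tested genes. Of all 381 tested genes of the chromosome outside the member rule, which include these 35, 98 were higher and 128 lower (median -0.13). Of the 35, 3 lay between the ends of the clusters, all named after their values were seen. Taf7, a general transcription factor subunit, read 13.6, 17.6, 18.3 and 13.5 CPM with vehicle and 18.6, 19.6, 19.7 and 20.5 CPM with panobinostat. Its log2 change was 0.33 (SE 0.14, limma adjusted p = 0.0705). 3222401L13Rik had 63, 71, 74 and 81 reads with vehicle and 20, 12, 18 and 13 with panobinostat (log2 change -2.11). It reached 1 CPM in 4 vehicle and 0 panobinostat libraries, so it passed the filter through vehicle alone. Its call, among the 7 lower, is not read as a result for that reason. Gm26672 changed by -0.11 with no call (limma adjusted p = 0.787).

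Genes known to act on the clusters were mostly lower. Of 18 listed regulators, 12 were called lower and 1 higher (median log2 change -0.60), beside 32.4% and 31.2% of all tested genes. Ctcf, whose protein binds the cluster promoters and enhancers, fell by 1.65 (SE 0.10, limma adjusted p = 4.95e-06), from 145 to 168 CPM in the vehicle libraries to 44.6 to 55.5 CPM. The cohesin genes Rad21 and Smc1a fell by 1.38 and 1.10, also without overlap. Rest, a repressor of neuronal genes, rose by 2.47 (SE 0.42, limma adjusted p = 0.000784), from 2.74 to 12.6 CPM to 24.7 to 34.6 CPM. Of 11 genes for cytoplasmic partners of protocadherins, 4 were higher and 5 lower, beside the same shares of all tested genes. Ptk2b, a kinase bound by clustered protocadherins, rose by 2.31, whereas Nckap1 and Abi2 of the WAVE actin complex fell by 0.85 and 0.83.

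Among the 5 type I classical cadherins, which carry the strongest homophilic adhesion, Cdh2 was called lower and 2 members higher. Of all tested genes 32.4% were lower and 31.2% higher. Cdh2 (N-cadherin, chromosome 18) read 144.8, 174.4, 197.0 and 191.8 CPM with vehicle and 60.4, 92.2, 68.6 and 78.4 CPM with panobinostat. The groups were far apart, and Cdh2 fell by 1.25 (SE 0.15, limma adjusted p = 9.59e-05) with the call kept in all 21 settings. Among the 47 members with a level per kilobase, which leaves out the alpha and gamma rows, it had the highest vehicle median, 22.7 CPM per kb (17.9 to 24.4 over the libraries), next to Cdh5 with 21.5 (6.32 to 38.3) and Cdh22 with 8.79 (3.46 to 12.7). The ranges of Cdh2 and Cdh5 overlapped, as did those of Cdh5 and Cdh22. The lowest of the 47 was Cdh23 with 0.0627 CPM per kb. Cdh2 moved with the neuroblastoma marker sum, whose part was not tested.

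Cdh1 (E-cadherin, chromosome 8) was near the floor in vehicle tumours, with 22, 33, 39 and 22 reads, against 222, 16, 175 and 200 reads in panobinostat libraries 1 to 4. Panobinostat library 2 lay below all vehicle libraries while the other 3 were far above them. Cdh1 rose by 1.98 (SE 0.75, limma adjusted p = 0.0416). The epithelial marker list summed to 7.46, 24.6, 11.2 and 9.54 CPM with vehicle and 53.5, 12.9, 24.4 and 42.3 CPM with panobinostat, and the adrenal cortex list to 54.1 to 95.8 CPM with vehicle and 888, 153, 1289 and 3378 CPM with panobinostat. Both sums were lowest among panobinostat libraries in library 2, as Cdh1 was, and their part in the result was not tested. The Cdh1 call was lost without any single library other than panobinostat library 2 (adjusted p 0.0595 to 0.106). Leaving out both panobinostat library 3 and library 4 gave a change of 1.15 and also ended it (adjusted p = 0.313). So did fits without a variance trend (adjusted p = 0.0521), with median centring (0.0515), library weights (0.0691) or voom weights (0.0645), and quantile normalization (1.33, adjusted p = 0.183).

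Cdh15 (M-cadherin, chromosome 8, known from muscle satellite cells) had 6, 48, 204 and 134 reads with vehicle and 212, 775, 473 and 349 with panobinostat. All panobinostat libraries lay above all vehicle libraries, by little for panobinostat library 1, and vehicle libraries ranged widely. Cdh15 rose by 2.98 (SE 0.98, limma adjusted p = 0.0233). The call was lost without panobinostat library 2 (2.64, adjusted p = 0.063), without panobinostat library 3 (2.92, adjusted p = 0.0515) and with libraries 3 and 4 both left out (2.97, adjusted p = 0.1). Skeletal muscle markers summed to 32.2, 2639, 361 and 27.7 CPM with vehicle and 7727, 223, 791 and 134 CPM with panobinostat. They ranged widely within both groups, and 0 of 7 tested markers were called. Their sum was highest in vehicle library 2 and panobinostat library 1, and Cdh15 in vehicle library 3 and panobinostat library 2. The part of muscle in the Cdh15 result was not tested. The remaining type I members had no call. Cdh3 (P-cadherin) changed by 0.69 (95% interval -0.11 to 1.499) and Cdh4 (R-cadherin) by 0.47 (-0.55 to 1.49) on the log2 scale.

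Type II classical cadherins, whose members pattern neuronal and mesenchymal groups, had 7 rows. Of these, 2 were higher and 2 lower, beside 31.2% and 32.4% of all tested genes. Cdh19 (chromosome 1, known from Schwann cell precursors) had 11, 13, 80 and 47 reads with vehicle and 106, 840, 219 and 212 with panobinostat. The groups did not overlap and panobinostat library 2 stood far above the rest. Cdh19 rose by 3.27 (SE 0.78, limma adjusted p = 0.00511), a call kept in all settings. Schwann cell markers showed a like order of libraries in part. The list summed to 167, 192, 249 and 296.7 CPM with vehicle and 130, 438, 205 and 216 CPM with panobinostat. Of its 10 markers, 6 were called higher and 1 lower, beside the same shares of all tested genes. Sox10, the defining factor of that lineage, had 8, 22, 214 and 118 reads with vehicle and 91, 1032, 369 and 267 with panobinostat, and rose by 2.81 (limma adjusted p = 0.0435). Both Cdh19 and Cdh15 were highest in panobinostat library 2 and lowest in vehicle library 1, as Sox10 was. Whether these cells account for the changes was not tested.

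Cdh22 (chr2:165111507-165234853, minus strand) read 47.0, 41.7, 12.8 and 23.4 CPM with vehicle and 8.06, 7.05, 8.27 and 9.99 CPM with panobinostat. Vehicle libraries 1 and 2 were high, and all 4 lay above the narrow panobinostat range. Cdh22 fell by 1.74 (SE 0.37, limma adjusted p = 0.00287) and kept its call in all settings. This is the reverse order of vehicle libraries to the neuroblastoma marker sum, which was lowest in libraries 1 and 2 and whose part was not tested. Cdh20, its relative on chromosome 1, read 3.80, 3.97, 3.15 and 5.06 CPM against 1.61, 2.59, 2.34 and 2.96 CPM. The groups did not overlap, though by little, and Cdh20 fell by 0.76 (SE 0.26, limma adjusted p = 0.028). The Cdh20 call was lost without vehicle library 2 or 4 or panobinostat library 1 or 3 (adjusted p 0.0551 to 0.0753). Scaling to read totals (0.0501) and leaving out panobinostat libraries 3 and 4 together (0.0594) ended it too.

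Cdh11 (OB-cadherin of mesenchymal cells, chromosome 8) read 11.1, 9.75, 6.43 and 5.10 CPM with vehicle and 25.4, 14.7, 15.7 and 11.6 CPM with panobinostat. The highest library was the first in each group and the groups did not overlap. Cdh11 rose by 1.06 (SE 0.31, limma adjusted p = 0.0133), a call kept in every setting except the stricter thresholds. The fibroblast and mural sum was likewise highest in vehicle library 1 and panobinostat library 1, and its part in the result was not tested. Cdh5 (VE-cadherin of endothelium) read 160.8, 117.6, 26.6 and 63.4 CPM with vehicle and 142.5, 108.5, 97.0 and 71.9 CPM with panobinostat. The groups overlapped fully and the interval of its log2 change ran from -0.68 to 1.56 around 0.44. The endothelial list summed to 490, 328, 110 and 224 CPM with vehicle and 520, 488, 385 and 351 CPM with panobinostat, with its lowest value in vehicle library 3 as for Cdh5. Of its 10 markers, 3 were called higher, beside 31.2% of all tested genes. Cdh6 (0.57) and Cdh24 (-0.10) had no call.

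**Figure D4:**
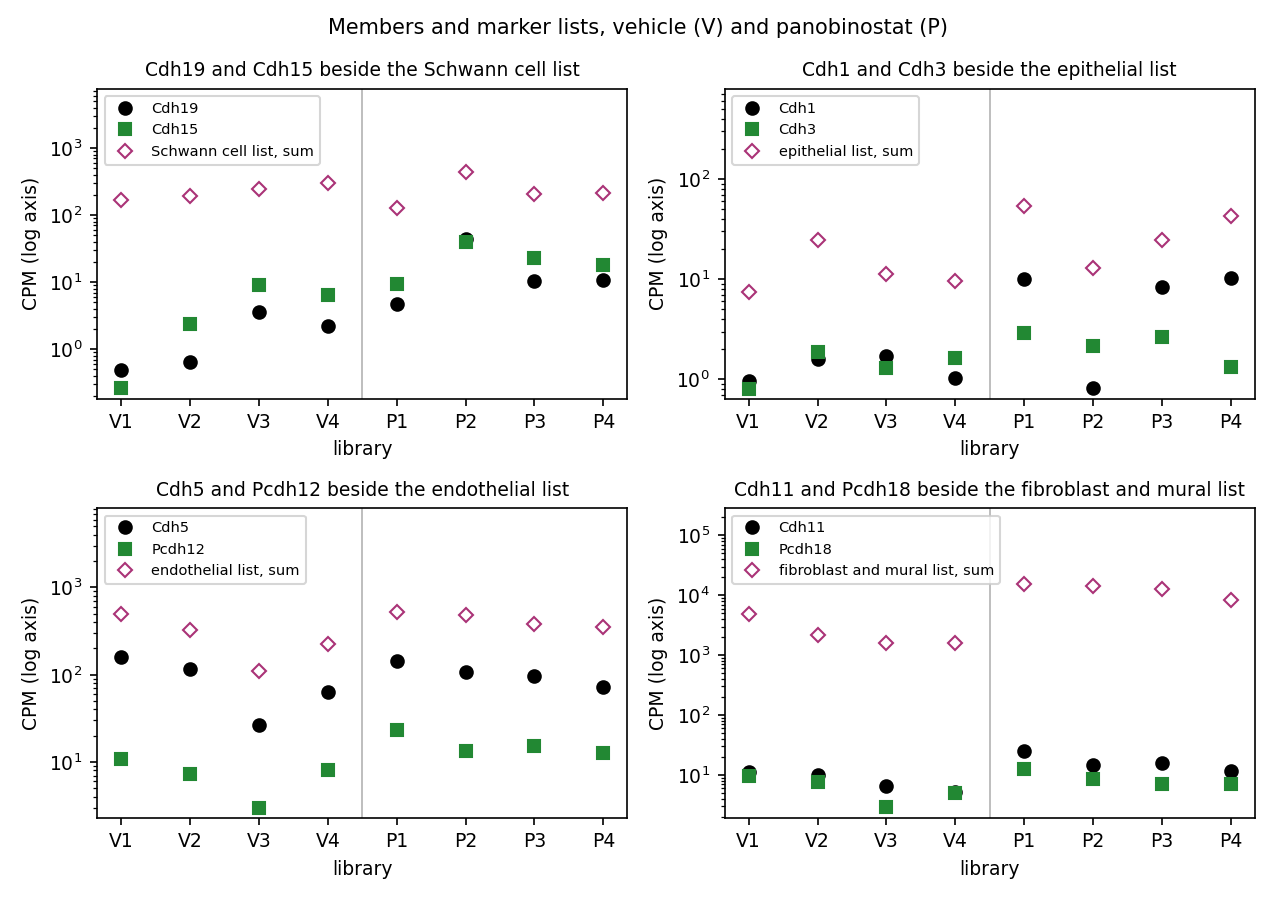
CPM (log axes) of Cdh19 and Cdh15, Cdh1 and Cdh3, Cdh5 and Pcdh12, and Cdh11 and Pcdh18 by library, beside the summed CPM of the Schwann cell, epithelial, endothelial, and fibroblast and mural marker lists. Cdh19 peaks in P2 with the Schwann cell sum (438 CPM), and Cdh1 is low in P2 where the epithelial sum is 12.9 CPM.

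Among the delta-1 protocadherins, which signal through conserved cytoplasmic motifs, Pcdh7 and Pcdh1 rose. Pcdh7 (chromosome 5) read 10.03, 6.57, 5.32 and 4.63 CPM with vehicle and 21.7, 16.7, 13.4 and 11.5 CPM with panobinostat. The groups did not overlap, and Pcdh7 rose by 1.27 (SE 0.28, limma adjusted p = 0.0035), kept in every setting except the test against a 1.5-fold change. Its libraries had the same order as the fibroblast and mural sum in both groups (4950, 2181, 1624 and 1581 CPM with vehicle, 15480, 14190, 12510 and 8496 CPM with panobinostat), whose part was not tested. Pcdh1 (chromosome 18, beyond the clusters) read 58.5, 44.4, 81.5 and 93.7 CPM against 91.1, 126.3, 101.2 and 92.3 CPM. Vehicle library 4 lay within the panobinostat range, and Pcdh1 rose by 0.61 (SE 0.23, limma adjusted p = 0.039). The Pcdh1 call was lost without vehicle library 1 or 2 or any single panobinostat library (adjusted p 0.0506 to 0.104). It was also lost without a variance trend (0.0557), after median centring (0.0898) and with panobinostat libraries 3 and 4 both left out (0.102). Pcdh9 changed by 0.02, with an interval from -0.65 to 0.69.

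Delta-2 protocadherins, which join the WAVE complex at cell contacts, had 2 of 5 members higher, beside 31.2% of all tested genes. Pcdh19 (chrX:133582860-133688987, minus strand, a gene mutated in an inherited epilepsy) read 6.67, 3.33, 5.54 and 5.10 CPM with vehicle and 13.3, 17.7, 11.5 and 12.8 CPM with panobinostat. Each panobinostat library lay well above each vehicle library, and Pcdh19 rose by 1.44 (SE 0.24, limma adjusted p = 0.000682), kept in all settings. Pcdh8, known from synaptic remodelling, read 7.73, 12.6, 7.76 and 7.09 CPM against 9.86, 13.2, 16.3 and 22.6 CPM. Vehicle library 2 lay inside the panobinostat range, and Pcdh8 rose by 0.79 (SE 0.28, limma adjusted p = 0.0338). The Pcdh8 call was lost without vehicle library 1, 3 or 4 or panobinostat library 2, 3 or 4 (adjusted p 0.0511 to 0.0896). It was also lost after median centring (0.0605), with library weights (0.0709), after quantile normalization (log2 change 0.42, adjusted p = 0.232) and with panobinostat libraries 3 and 4 both left out (0.41, adjusted p = 0.294). Pcdh10, Pcdh17 and Pcdh18 changed by -0.13, 0.31 and 0.57 with no call.

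The remaining single protocadherins went different ways. Pcdh15 (chr10:73099342-74649737, plus strand, the tip-link protein of hair cells) read 16.5, 17.99, 8.78 and 7.42 CPM with vehicle and 4.66, 5.29, 5.07 and 7.08 CPM with panobinostat. Vehicle library 4 came close to panobinostat library 4 without overlap, and Pcdh15 fell by 1.11 (SE 0.31, limma adjusted p = 0.0113), kept in every setting except the stricter thresholds. Pcdh12 (VE-cadherin-2 of endothelium, chromosome 18) read 10.8, 7.30, 2.97 and 8.03 CPM against 23.0, 13.4, 15.2 and 12.5 CPM. The groups did not overlap, and vehicle library 3 was the lowest, as in the endothelial sum. Pcdh12 rose by 1.24 (SE 0.38, limma adjusted p = 0.0178), a call lost without panobinostat library 1 (adjusted p = 0.0507), after quantile normalization (adjusted p = 0.053) and with panobinostat libraries 3 and 4 both left out (adjusted p = 0.0539). Pcdh20 (0.47) and the more distant cadherins Cdh13 (0.43), Cdh17 (-0.84) and Cdh23 (0.64) had no call.

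**Figure D5:**
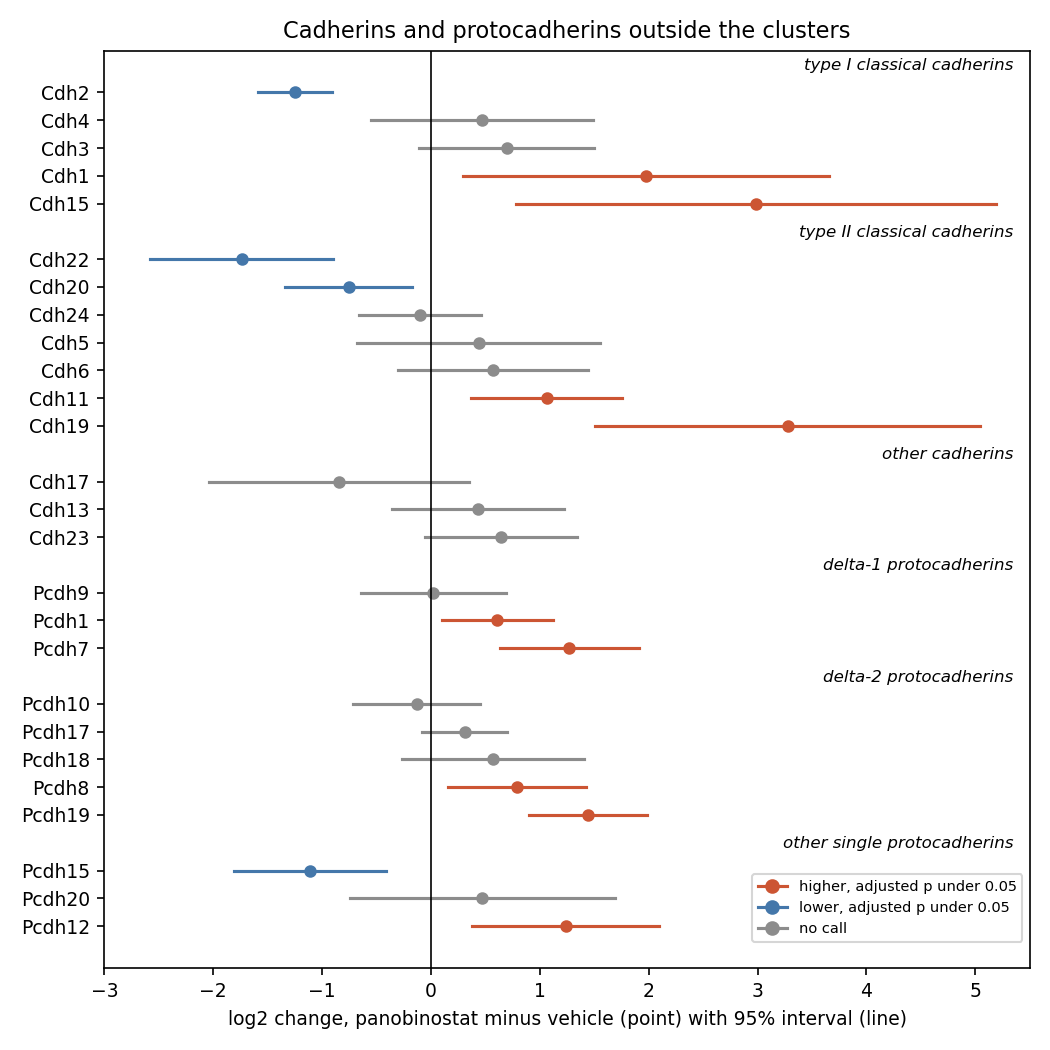
Log2 change (panobinostat minus vehicle) with its 95% interval for 26 members outside the clusters, grouped by type, coloured by call (9 higher, 4 lower, 13 without a call). Intervals of Cdh1, Cdh15 and Cdh19 are the widest among called members.

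Promoter windows from RefSeq (250 bases before to 50 after each start, build GRCm38.p6) matched 15 of the 49 members, with 16 windows. The pair printed here belongs to a gene that fell (Pcdh15) and one that rose (Pcdh19) with separate groups. Letters are in the direction of the gene. Capitals mark matches to the GC box (GGGCGG or CCGCCC, either strand) or to the E2-box (CACCTG or CAGGTG, either strand), a motif known from repressors of E-cadherin.
Pcdh15, chr10:73821617-73821916, plus strand: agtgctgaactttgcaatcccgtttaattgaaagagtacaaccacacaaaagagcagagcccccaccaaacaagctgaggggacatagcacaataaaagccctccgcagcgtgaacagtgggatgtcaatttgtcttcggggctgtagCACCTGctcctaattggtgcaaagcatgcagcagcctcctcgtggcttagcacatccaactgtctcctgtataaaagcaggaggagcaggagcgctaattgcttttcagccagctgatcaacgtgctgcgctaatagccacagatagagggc
Pcdh19, chrX:133688944-133689243, minus strand: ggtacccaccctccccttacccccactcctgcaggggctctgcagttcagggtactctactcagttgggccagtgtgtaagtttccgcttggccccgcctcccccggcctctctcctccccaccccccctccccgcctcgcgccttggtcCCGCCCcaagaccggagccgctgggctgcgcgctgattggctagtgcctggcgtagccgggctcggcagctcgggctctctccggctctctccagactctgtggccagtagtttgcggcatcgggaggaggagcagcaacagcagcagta

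The Pcdh15 window lies at a start inside the M21 gene interval, and holds 1 E2-box and no GC box. The Pcdh19 window holds 1 GC box and no E2-box. Other members show the reverse: the window of Pcdh7, which rose, holds 1 E2-box and no GC box. That of Cdh22, which fell, holds 1 GC box and no E2-box. No relation between motif and direction is read from the printed pair. Over the 16 windows, 8 held a GC box, against 35.7% of 32851 RefSeq promoters of the same length, and 2 held an E2-box, against 20.2%. Their median was 18 CpG dinucleotides, against 7 in all promoters. These are matches of letters, with no binding measured.

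Genes for the proteins that bind classical cadherins were also read. The counts of calls in these lists stand beside 31.2% higher and 32.4% lower among all tested genes, and no list was tested against those shares. Of 9 catenin genes, 3 were higher and 4 lower (median log2 change 0.18). Ctnna1, the alpha-catenin of most tissues, rose by 1.05 (75.9 to 103 CPM with vehicle, 161 to 211 CPM with panobinostat), while the neural Ctnna2 and Ctnnd2 fell by 1.32 and 1.71. Ctnnb1 (beta-catenin) changed by 0.18 with no call (limma adjusted p = 0.118). Of 7 linkers from junctions to actin, 4 were higher and 1 lower: Vcl (vinculin) rose by 2.15, Lima1 by 2.04 and Actn4 by 0.94. Of 8 genes for cadherin-cleaving proteases, 4 were higher and 1 lower, with Psen2 up by 1.87, Adam17 by 1.51 and Adam10, the main sheddase of N-cadherin, by 0.99. Among 6 repressors of E-cadherin, Snai1 and Snai2 rose by 2.47 and 2.76 and Zeb1 fell by 0.88. The E-cadherin repressor counts were 3 higher and 2 lower. Among the 3 is Twist1, which reached 1 CPM in 0 vehicle and 4 panobinostat libraries and so passed the filter through panobinostat alone. Cadherin superfamily genes outside the rule had 13 tested, 2 higher and 5 lower. Of the 2 higher, Fat3 likewise reached 1 CPM in 0 vehicle and 4 panobinostat libraries. Dchs1, a giant cadherin of planar polarity, fell by 2.65 (SE 0.12, limma adjusted p = 2.72e-06), from 224 to 286 CPM to 34.2 to 46.0 CPM, and the neuronal Celsr3 and Celsr2 fell by 1.53 and 1.23. Rest, Twist1 and Fat3 were not followed over the alternative settings, and Fat3 (limma adjusted p = 0.0227) misses the threshold of 0.01. The other called genes named from these lists and from the regulators and partners of the clusters kept their calls in all settings. The exception was Abi2, which missed the test against a 1.5-fold change.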

How the data were processed

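Total RNA of 8 tumours, 4 per group, was sequenced. Per the submitters' processing notes, CASAVA 1.8.2, TopHat2, HTSeq, limma and build mm10 were used. For annotation, reads with several matches and use of strand, the steps were not given in the sources used here. The deposited table holds log2 values made by the authors, of the form log2 CPM with 0.5 added to each count: turned back into reads, 100% of values were whole to within 0.001 read. Reads of genes that overlap, on either strand, may thus be mixed.

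The 16157 genes that reached 1 CPM in 4 or more libraries entered a limma 3.58.1 fit (R 4.3.3; lmFit, eBayes with a variance trend, no covariate), with two-sided tests and Benjamini-Hochberg adjustment over all of them at 0.05. The code of the fit was run on simulated counts with few genes changed and an equal spread setting in both groups. That setting differs from these data, so no support for the calls is drawn from it. Identifiers were matched to GENCODE M21 (17228 of 17488 with a symbol). Named genes were every tested member outside the clusters, the strongest and highest clustered members, and 3 genes of each other list by smallest adjusted p; further genes were named after their values were seen. The members and lists were chosen with earlier results of these data known. The sample codes carry lower numbers for vehicle than for panobinostat, and a batch of that kind cannot be told apart from treatment. Labels give 1 animal per library and no pairing. P-values set the difference between groups against the spread between these animals, pooled over both groups and moderated across genes. The groups differed in that spread: the median SD of log2 values over all tested genes was 0.30 with vehicle and 0.16 with panobinostat. Alternatives covered filter, scaling, weights, variance prior, pseudocount, thresholds and libraries left out.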

Additional observations from a re-analysis of the deposited data

Results flagged for a closer look

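Over 100 groups of 4 libraries (the 49 members and the beta sum, in each treatment), 7 had 1 library whose gap to the nearest other exceeded the 95% limit for a gap divided by the range, both taken on log2 values, where chance gives about 1 in 20. For Pcdhb18 with vehicle the ratio was 0.936 (library 3 at 6.96 CPM, the others 2.43 to 2.60), and for Pcdhb9 with vehicle 0.831 (library 2 at 1.96 CPM, the others 4.99 to 6.03). With panobinostat it was 0.881 for Pcdhb11 (library 2 at 4.15 CPM, the others 2.29 to 2.46) and 0.845 for Pcdhb21 (library 4 at 0.866 CPM, the others 1.77 to 2.02). Outside the clusters it was 0.942 for Pcdh17 with panobinostat (library 1 at 13.2 CPM, the others 17.1 to 17.4), 0.842 for Pcdh8 with vehicle (library 2 at 12.6 CPM, the others 7.09 to 7.76) and 0.921 for Cdh1 with panobinostat (library 2 at 16 reads, the others 175 to 222 reads).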

How the results depend on the processing

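Of 49 members, 15 were called and kept their call and direction in all 21 alternatives that tested them, apart from the stricter thresholds (adjusted p of 0.01 and a 1.5-fold limit): Pcdha11, Pcdhb2, Pcdhb5, Pcdhb6, Pcdhb10, Pcdhb15, Pcdhb16, Pcdhb21, Pcdh7, Pcdh19, Pcdh15, Cdh2, Cdh11, Cdh19 and Cdh22. Members higher and lower were 9 and 21, and became 3 and 12 at an adjusted p of 0.01, 2 and 6 against a 1.5-fold change, 4 and 11 without panobinostat libraries 3 and 4, and 7 and 8 with a filter of 5 CPM, which leaves fewer genes tested. Clustered rows lower (17) became 10, 4, 8 and 5 under these settings, other members higher (9) became 3, 2, 4 and 7, and other members lower (4) became 2 at an adjusted p of 0.01 and 2 against 1.5-fold. With library weights 1 clustered row was higher. Leaving out 1 library gave 5 to 9 members higher and 16 to 20 lower, 0 to 1 clustered rows higher (Pcdhb11 without vehicle library 3) and 12 to 17 lower, and 5 to 8 other members higher (5 without panobinostat library 3) and 3 to 4 lower. Every member whose direction turned had no call. After quantile normalization the log2 change was -0.633 for Pcdhb8, -0.56 for Pcdh9, -0.014 for Cdh23, -0.091 for Pcdh20, -0.026 for Cdh4 and -0.021 for Cdh6. Median centring gave -0.094 for Pcdhb8 and -0.097 for Pcdh9, a pseudocount of 1 CPM -0.012 for Pcdhb8, scaling to read totals 0.015 for Cdh24, and library weights -0.183 for Pcdh9 and -0.035 for Cdh5. Leaving out vehicle libraries turned Pcdhb8 (-0.155 without 1, -0.266 without 2), Pcdh9 (-0.071 without 1, -0.156 without 4), Pcdhb7 (0.046 without 3), Pcdh20 (-0.065 without 2), Cdh24 (0.065 without 2) and Cdh5 (-0.06 without 3). Leaving out panobinostat libraries turned Pcdhb8 (-0.226 without 2), Pcdh9 (-0.115 without 2), Pcdh10 (0.087 without 1) and Cdh24 (0.099 without 3 and 4). Over single libraries left out, the log2 change ran from -0.641 to 0.046 for Pcdhb7, -0.266 to 0.328 for Pcdhb8, -0.156 to 0.172 for Pcdh9, -0.321 to 0.087 for Pcdh10, -0.065 to 0.814 for Pcdh20, -0.268 to 0.065 for Cdh24 and -0.06 to 0.806 for Cdh5. The cause was not tested. Calls were gained by Pcdhb14, Pcdhb18 and Cdh17 after quantile normalization, by Pcdhb11, Pcdh20 and Cdh6 with library weights, by Pcdhb11 and Cdh6 without vehicle library 3 and by Cdh3 without panobinostat library 4. Beta genes had 13 to 329 reads per library, which limits their precision. No paired analysis was possible because the labels give the groups no shared replicate numbers.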
